A study of Mus musculus with 31 samples.

Results

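Of 8 enzymes of steroid metabolism chosen by name, 7 were measured in the livers of 4 mouse strains, among 18147 genes in all. They were Hsd3b2, Hsd3b3, Hsd3b5, Cyp17a1, Hsd11b1, Hsd17b2 and Sult1e1. For the last of them, Srd5a1, which reduces the double bond of testosterone and other steroids, no probe set was analysed here. Where a gene had several probe sets the brightest was used, and all 7 were among the 12890 genes tested. The choice of these genes rested on how their levels differed between vehicle animals of the strains, so those levels are given as a description with no test. Hsd3b5 passed the filter on dim genes in 9 arrays alone, 8 of them from NZW/LacJ, the strain where it was high.

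The livers came from female mice of the inbred strains SM/J, WSB/EiJ, MA/MyJ and NZW/LacJ, aged 8 to 10 weeks when the study began. Each animal received PF-04287881, a candidate antibiotic, at 600 mg/kg or sterile water by gavage once a day for 7 days, and the left liver lobe was taken 24 hours after the last dose. There were 31 arrays, 1 per animal, in 8 groups of 4, with 3 in the treated WSB/EiJ group. The submitters coded MA/MyJ and NZW/LacJ for vacuolation of Kupffer cells, the resident macrophages of the liver, and NZW/LacJ also for single cell necrosis.

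The liver takes up, remodels and clears steroid hormones. Enzymes of the Hsd3b family oxidise a hydroxyl group of the A ring or reduce the keto group in its place. Cyp17a1 hydroxylates and cleaves the side chain, and Hsd11b1 and Hsd17b2 switch hormones between active and inert keto forms. Sult1e1 sulfates estrogens, which then no longer bind their receptor. Many such genes differ between male and female mouse liver under the pattern of growth hormone release, and Hsd3b5 is known as a male-predominant reductase of keto steroids.

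All values are on the log2 scale of RMA, so a difference of 1 is a doubling. Levels of different genes cannot be set against each other on this scale. The array labelled WSB/EiJ treated animal 3 stood apart. Over the 1000 probe sets that separated the vehicle strains most, leaving out those of the enzymes, it lay at a root mean square distance of 0.235 from the NZW/LacJ vehicle mean and 1.92 from that of its own label. The other 30 arrays were nearest to their own strain, at 0.256 to 1.05. Vehicle NZW/LacJ arrays lay 0.256 to 0.299 from the NZW/LacJ vehicle mean and treated ones 0.704 to 0.864. By this measure the array in doubt was thus like vehicle rather than treated NZW/LacJ livers. Results are therefore given with all 31 arrays and with the 30 that remain without it, as the 31-array and the 30-array fit. All 12 measured hepatocyte markers passed the filter on dim genes, with a list mean of 13.46 to 13.82 in every array. Of 9 measured adrenal markers 5 passed it, and Cyp11a1, Cyp11b1, Cyp11b2 and Mc2r did not. Of 7 measured kidney markers 3 passed it, and Lrp2, Kap, Umod and Slc22a6 did not. In a piece of liver, fewer cells of a type and less RNA per cell cannot be told apart. Probe sequences were not analysed here, so a strain's level and how well its transcript binds the probes cannot be told apart either.

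The 3 Hsd3b genes lie side by side on mouse chromosome 3, in the order Hsd3b5, Hsd3b2 and Hsd3b3, and their vehicle levels were spread differently over the strains. Hsd3b5 and Hsd3b2 had the same order of strain means, with NZW/LacJ at the top. Hsd3b3 separated WSB/EiJ alone by its brighter probe set, while its dimmer one had that same order of means. The 250 bases before their transcription starts are shown so that these neighbours can be compared. They come from RefSeq on GRCm38.p6, all on the minus strand, at chr3:98645535-98645784 for Hsd3b5, chr3:98724544-98724793 for Hsd3b2 and chr3:98763129-98763378 for the first of the starts listed for Hsd3b3. Capitals mark the runs of 12 or more bases shared by 2 of the 3 windows.

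Hsd3b5: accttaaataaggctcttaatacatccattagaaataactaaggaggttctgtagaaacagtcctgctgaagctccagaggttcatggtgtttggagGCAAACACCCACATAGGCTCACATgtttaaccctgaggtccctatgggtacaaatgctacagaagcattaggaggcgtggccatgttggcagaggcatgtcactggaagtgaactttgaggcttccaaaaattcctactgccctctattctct
Hsd3b3: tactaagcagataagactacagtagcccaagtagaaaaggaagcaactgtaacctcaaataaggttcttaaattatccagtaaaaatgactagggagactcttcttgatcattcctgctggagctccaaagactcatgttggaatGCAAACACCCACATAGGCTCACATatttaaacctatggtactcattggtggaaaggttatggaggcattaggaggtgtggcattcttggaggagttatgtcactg
Hsd3b2: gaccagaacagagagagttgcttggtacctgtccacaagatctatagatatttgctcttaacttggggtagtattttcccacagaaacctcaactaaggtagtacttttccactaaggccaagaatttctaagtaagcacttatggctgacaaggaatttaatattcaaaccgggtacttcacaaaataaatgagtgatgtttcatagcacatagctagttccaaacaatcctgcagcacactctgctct

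The windows of Hsd3b5 and Hsd3b3 shared a run of 24 bases, and 75.5% of 204 columns were identical in their local alignment. Hsd3b2 had no capital, and its longest run shared with either of them was 8 bases. Its local alignments had 54.6% identity with Hsd3b5 and 52.2% with Hsd3b3, beside 51.9% with Sult1e1. RefSeq windows were found for 6 of the 8 enzymes, 7 windows in all. None of them held TTCNNNGAA, the pair of half-sites that STAT5 binds, which was in 7.02% of 32851 windows of the table. Neither TATAAA, in 12.4% of windows, nor CAAAGTCCA, an HNF4 alpha sequence in 0.384%, was found in the 7 windows on either strand. These letters are a description of the windows and no measure of binding.

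Hsd3b5 was bright in NZW/LacJ and near the bottom of the scale elsewhere. The 4 vehicle NZW/LacJ livers read 10.11, 10.15, 10.35 and 10.36, with a mean of 10.24 ± 0.13 (SD, n = 4). Vehicle MA/MyJ livers read 6.14, 5.69, 6.33 and 5.17, the SM/J livers 5.11, 5.00, 4.82 and 5.26, and the WSB/EiJ livers 4.80, 4.94, 4.82 and 5.02. No animal of the other strains came within 3 log2 units of NZW/LacJ, whose mean was 4.41 log2 units above that of MA/MyJ, the next in order. All vehicle values of the other strains lay below 6.49, the median of all values on the arrays, and no detection calls were used here, so no fold is given against them. MA/MyJ overlapped SM/J, and SM/J overlapped WSB/EiJ, so only the top of the order is set apart from its neighbour. The range over the strains, 5.35, exceeded that of all but a few of the genes tested, whose median was 0.39.

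After PF-04287881 the NZW/LacJ livers read 9.39, 10.31, 9.43 and 8.46 for Hsd3b5, and 3 of the 4 lay below every vehicle animal. The difference was -0.85 ± 0.25 (SE) in the 30-array fit, with an adjusted p of 0.0123, and did not pass in the 31-array fit, with 0.379. The call thus appears only without the array labelled WSB/EiJ treated animal 3, which read 10.12 beside 5.02 and 4.77 in the other treated WSB/EiJ animals. Without treated animal 4 as well, the NZW/LacJ change was -0.53 and no longer passed, with an adjusted p of 0.0783. Treated MA/MyJ livers read 5.29, 4.99, 4.59 and 4.89, and 3 of the 4 lay below every vehicle animal. Hsd3b5 passed the filter through NZW/LacJ and the array in doubt, and all MA/MyJ values were dim, so nothing is read from its tests outside NZW/LacJ or from its average over the strains.

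Hsd3b2, a form of liver and kidney, formed a ladder in which no neighbours overlapped. Vehicle NZW/LacJ livers read 8.97, 8.34, 8.63 and 8.84, and MA/MyJ livers 6.57, 8.01, 8.20 and 6.91. The SM/J livers read 5.74, 6.38, 5.89 and 5.43, and the WSB/EiJ livers 4.01, 3.60, 4.28 and 4.42. NZW/LacJ stood 1.27 log2 units above MA/MyJ, and MA/MyJ 1.56 above SM/J. The vehicle SM/J and WSB/EiJ values all lay below 6.49, so the size of the steps that involve them is uncertain. Hsd3b2 had the same strain at the top as Hsd3b5, yet MA/MyJ, SM/J and WSB/EiJ, which lay together for Hsd3b5, did not overlap here.

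Among treated animals of the 30 arrays NZW/LacJ overlapped MA/MyJ, and MA/MyJ overlapped SM/J, for Hsd3b2. The step from MA/MyJ to SM/J was 0.54, beside 1.56 in vehicle animals. That from NZW/LacJ to MA/MyJ was 1.26, beside 1.27, and that from SM/J to WSB/EiJ 2.27, beside 1.78. The genes were chosen by their vehicle levels, so nothing is read from these changes in the steps. Treated SM/J livers read 6.64, 7.04, 7.36 and 5.65, and 3 of the 4 lay above every vehicle animal. Their mean difference was 0.81 ± 0.66 (SE), with an adjusted p of 0.637, and 0.81 ± 0.43 in the 30-array fit, so the difference did not pass. Treated MA/MyJ livers ran from 5.84 to 8.13 and treated NZW/LacJ livers from 7.69 to 8.97, both overlapping their vehicle groups. In WSB/EiJ the difference was 1.82 with all arrays (adjusted p 0.0739) and 0.32 without the array in doubt, which read 8.90 beside 4.16 and 4.64. With it kept, the difference passed without treated animal 1, at 2.69 (adjusted p 0.0189), or 2, at 2.45 (adjusted p 0.0321).

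Hsd3b3, the third of the neighbours, separated WSB/EiJ from the rest. Vehicle WSB/EiJ livers read 8.76, 8.54, 7.99 and 9.78. The lowest vehicle animal of the other strains, an SM/J liver, read 10.26. The SM/J livers read 10.26, 11.31, 11.17 and 11.75, the MA/MyJ livers 10.54, 11.11, 11.21 and 10.89, and the NZW/LacJ livers 10.81, 10.64, 10.64 and 10.73. These 3 strains overlapped, and the step from NZW/LacJ down to WSB/EiJ was 1.94, or 3.83-fold.

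Hsd3b3 rose in NZW/LacJ. Treated livers read 11.27, 12.36, 12.12 and 12.10, all above every vehicle animal, and the difference was 1.26 ± 0.41 (SE), 2.39-fold, with an adjusted p of 0.0272. In the 30-array fit the SE was 0.31 and the adjusted p 0.00391. The call ended in the 31-array fit without NZW/LacJ treated animal 2, 3 or 4 or vehicle animal 2, 3 or 4, with adjusted p up to 0.0733, and it held without any further animal in the 30-array fit. Treated SM/J livers read 11.39, 12.15, 12.06 and 11.81, 3 of them above every vehicle animal, at 0.73 ± 0.41 (adjusted p 0.428), and treated MA/MyJ livers were at 0.31 ± 0.41 (adjusted p 0.755). In the 30-array fit the NZW/LacJ effect exceeded that in WSB/EiJ by 1.34 ± 0.50 (adjusted p 0.0401). With all arrays that difference was 0.56 ± 0.60 (adjusted p 0.528).

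The probe sets of Hsd3b3 disagreed on this rise. Its dimmer probe set read 8.01, 7.73, 7.65 and 7.81 in vehicle NZW/LacJ livers and 7.22, 8.28, 8.03 and 7.64 in treated ones, a difference of -0.01 (adjusted p 0.993). In SM/J its means were 7.16 in vehicle and 6.72 in treated livers, a difference of -0.44 that did not pass (adjusted p 0.615), against 0.73 for the brighter one. A probe set shared by Hsd3b2, Hsd3b3 and Hsd3b6 followed the brighter one, with NZW/LacJ means of 10.26 in vehicle and 11.45 in treated livers. The brighter set is of the kind that the array's makers mark as prone to bind related transcripts, so the rise could not be given to Hsd3b3 alone among its paralogues. Both Hsd3b3 probe sets, and the shared one, were lowest in WSB/EiJ.

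**Figure D1:**
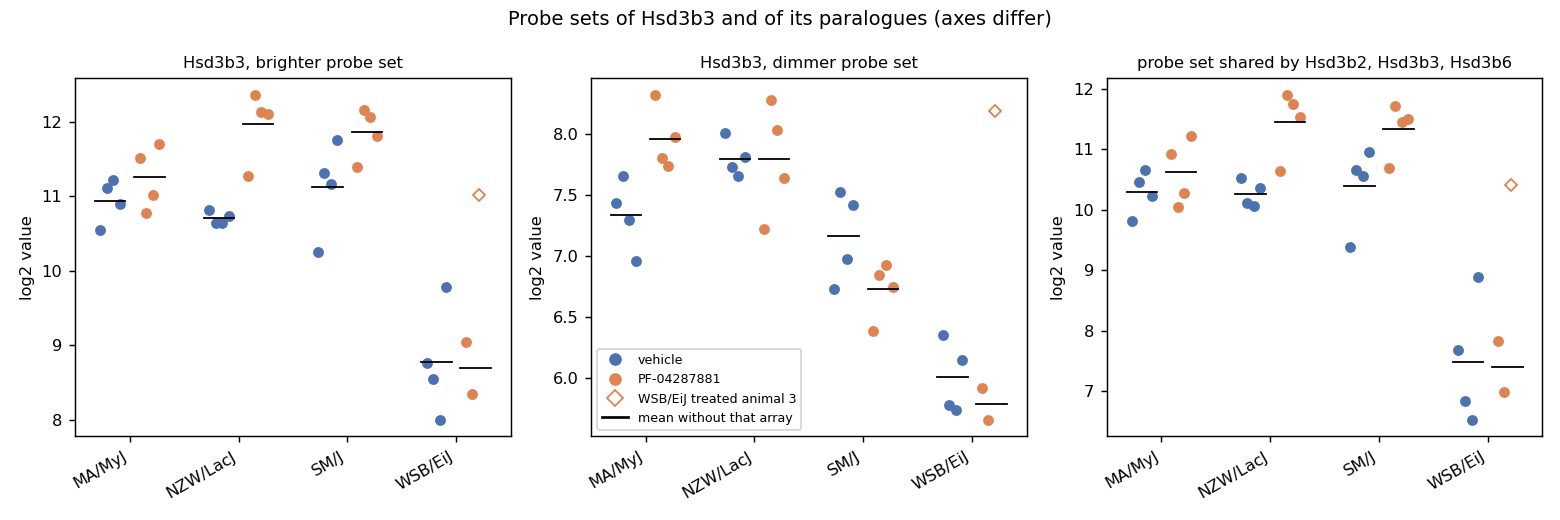
The y axes give log2 values of 3 probe sets and the x axes the strains. Each point is 1 liver, vehicle in blue and PF-04287881 in orange, the open diamond is the array labelled WSB/EiJ treated animal 3, and bars are means without it. In NZW/LacJ the brighter and the shared set rose to means of 11.96 and 11.45, while the dimmer one had a treated mean of 7.79.

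Cyp17a1, the hydroxylase and lyase on the way to androgens, ran the opposite way from Hsd3b2, with WSB/EiJ at the top. Vehicle WSB/EiJ livers read 13.72, 13.61, 13.57 and 13.69, and SM/J livers 12.83, 12.83, 12.77 and 13.03. The MA/MyJ livers read 10.77, 9.90, 10.65 and 11.59, and the NZW/LacJ livers 9.58, 9.79, 9.89 and 9.34. No neighbours overlapped, and the ends were 4.00 log2 units, or 16.0-fold, apart. The vehicle animals of WSB/EiJ and SM/J lay close together, while those of MA/MyJ ran from 9.90 to 11.59.

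Cyp17a1 fell on average over the strains, by 0.86 ± 0.26 (SE; adjusted p 0.0194) in the 31-array fit and by 0.58 ± 0.19 (adjusted p 0.0201) in the 30-array fit. In the latter the call ended without WSB/EiJ treated animal 1 as well, at -0.53 (adjusted p 0.0652). Every treated SM/J liver, at 12.22, 12.38, 12.11 and 12.53, lay below every vehicle one. The SM/J difference of -0.56 ± 0.51 did not pass in the fit over all strains (adjusted p 0.692), and passed when the SM/J arrays were fitted alone (adjusted p 0.0227). Treated NZW/LacJ livers read 9.17, 8.01, 9.69 and 8.24, a difference of -0.87 (adjusted p 0.244, and 0.0727 in the 30-array fit). In the latter it passed without MA/MyJ treated animal 1 or 2 (adjusted p 0.0360 and 0.0475), or without NZW/LacJ treated animal 3, at -1.18 (adjusted p 0.0178). Treated MA/MyJ livers ran from 9.40 to 11.66, across their whole vehicle group. In WSB/EiJ the treated livers read 12.67, 13.05 and, in the array in doubt, 9.56. The WSB/EiJ difference of -1.89 passed with all arrays (adjusted p 0.0177), and was -0.79 without that array, where it did not pass (adjusted p 0.177).

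Hsd11b1 regenerates active glucocorticoid in liver, and its levels did not bear out a difference between strains. Vehicle means were 13.79 ± 0.15 in SM/J, 13.73 ± 0.08 in MA/MyJ, 13.72 ± 0.01 for NZW/LacJ and 13.64 ± 0.16 in WSB/EiJ (SD, n = 4 each). All neighbours overlapped, and 8.33% of the genes tested had a smaller range than its 0.14.

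Hsd11b1 fell slightly with treatment in MA/MyJ in both fits and in SM/J in the 30-array fit, while the NZW/LacJ difference did not pass in either. Vehicle MA/MyJ livers read 13.69, 13.81, 13.79 and 13.65, and treated ones 13.53, 13.32, 13.34 and 13.54, a difference of -0.30 ± 0.08 (SE; adjusted p 0.0252, and 0.0176 in the 30-array fit). Vehicle NZW/LacJ livers lay between 13.71 and 13.74 and treated ones between 13.45 and 13.65, at -0.14 ± 0.08 (adjusted p 0.201). Vehicle SM/J livers lay between 13.59 and 13.93 and treated ones between 13.47 and 13.54, at -0.27 ± 0.08 (adjusted p 0.0669, and 0.0460 in the 30-array fit). In each of these strains all 4 treated livers were below all 4 vehicle ones. In WSB/EiJ the groups overlapped, with a difference of 0.02 ± 0.08 in the 31-array fit and -0.01 ± 0.09 in the 30-array fit.

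In the 31-array fit the SM/J difference passed without SM/J vehicle animal 1 (-0.33, adjusted p 0.0263) or WSB/EiJ vehicle animal 3 (adjusted p 0.0382).

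The average fall of Hsd11b1 over the strains was 0.17 ± 0.04 (adjusted p 0.00240), 1.13-fold, and 0.18 ± 0.04 in the 30-array fit (adjusted p 0.00138). It passed without any single animal in both fits. The MA/MyJ call ended without treated animal 2 or 3 or vehicle animal 2 or 3, with adjusted p up to 0.0971, and the SM/J call of the 30-array fit ended without any 1 of 16 animals, with adjusted p up to 0.169.

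Hsd17b2, which inactivates estradiol and testosterone, also did not bear out a strain difference of the size of the others. Vehicle means were 11.42 ± 0.14 in NZW/LacJ, 11.41 ± 0.08 in SM/J, 11.18 ± 0.13 in MA/MyJ and 10.89 ± 0.63 in WSB/EiJ (SD, n = 4 each). SM/J and MA/MyJ did not overlap, but WSB/EiJ, at 11.10, 10.67, 10.16 and 11.64, spanned the other 3. Its range of 0.53 was larger than that of 65.7% of the genes tested. Treated SM/J livers, at 11.05, 11.20, 11.32 and 10.89, were all below the vehicle ones, at 11.33, 11.45, 11.49 and 11.36. That difference was -0.29 ± 0.24 (SE) and did not pass (adjusted p 0.637), nor did Hsd17b2 in another strain or on average in either fit. In the 30-array fit the WSB/EiJ difference was -0.52 (adjusted p 0.130), and it passed without treated animal 1, at -1.08 (adjusted p 0.0115), or vehicle animal 3, at -0.77 (adjusted p 0.0106). The average passed without the same animals, at -0.36 (adjusted p 0.0141) and -0.28 (adjusted p 0.0237).

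Sult1e1, the estrogen sulfotransferase, had the widest range of the 7, 5.59 log2 units between WSB/EiJ and MA/MyJ. Vehicle WSB/EiJ livers read 13.18, 13.33, 13.08 and 12.75. The NZW/LacJ livers read 8.44, 8.99, 8.41 and 8.78, the SM/J livers 8.11, 6.42, 7.23 and 8.38, and the MA/MyJ livers 6.47, 7.71, 7.46 and 8.35. WSB/EiJ stood 21.5-fold above NZW/LacJ, its neighbour in the order. NZW/LacJ was above every SM/J animal by a narrow margin, and SM/J and MA/MyJ overlapped fully, with means of 7.54 and 7.50.

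With treatment Sult1e1 rose in MA/MyJ in both fits, and in NZW/LacJ and SM/J in the 30-array fit. These differences subtract the vehicle values by which the genes were chosen, so no link between vehicle level and change is read. Treated MA/MyJ livers read 9.63, 11.44, 9.44 and 10.59, all above every vehicle animal, a difference of 2.78 ± 0.71 (SE), or 6.86-fold (adjusted p 0.0235, and 0.000139 in the 30-array fit). Treated NZW/LacJ livers read 10.89, 10.29, 10.37 and 9.57, also all above every vehicle one, at 1.62 ± 0.71 (adjusted p 0.107) and 1.62 ± 0.42 in the 30-array fit (adjusted p 0.00496). Treated SM/J livers read 9.52, 9.13, 8.36 and 9.03, 3 of them above every vehicle one, at 1.47 ± 0.71 (adjusted p 0.340) and 1.47 ± 0.42 in the 30-array fit (adjusted p 0.0388). The NZW/LacJ and SM/J rises passed in the 30-array fit alone, in which the MA/MyJ and NZW/LacJ calls held without any further animal. The MA/MyJ call of the 31-array fit ended without treated animal 2 or 4 or vehicle animal 1 or 3, with adjusted p up to 0.0935. The SM/J call ended without SM/J treated animal 1, 2 or 4 or vehicle animal 2 or 3, with adjusted p up to 0.173.

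In WSB/EiJ the treated livers read 13.15, 13.42 and, in the array in doubt, 8.15 for Sult1e1. The difference was -1.51 ± 0.77 with that array (adjusted p 0.174) and 0.20 ± 0.51 without it (adjusted p 0.809), and the 95% interval of the latter ran from -0.85 to 1.25. With that array kept and treated animal 2 left out it was -2.44 (adjusted p 0.0369). Vehicle WSB/EiJ livers already read 12.75 to 13.33 for Sult1e1, beside a highest value of 14.88 on the arrays. Whether a rise from so bright a level would be read in full was not tested. The effects of the strains differed for Sult1e1 by the F test of strain by treatment, with an adjusted p of 0.0222 in the 31-array fit and 0.0237 in the 30-array fit. The MA/MyJ effect exceeded the WSB/EiJ effect by 4.29 ± 1.05 (adjusted p 0.00863), and by 2.58 ± 0.66 in the 30-array fit (adjusted p 0.00536), where 12.2% and 24.2% of all genes were called. NZW/LacJ exceeded WSB/EiJ by 3.13 with all arrays (adjusted p 0.0298) and by 1.42 without the array in doubt (adjusted p 0.0990), against 24.1% and 33% of all genes. For SM/J the excess was 2.99 (adjusted p 0.0993) and 1.28 (adjusted p 0.190), against 4.62% and 17%. The F test call of the 30-array fit ended without MA/MyJ vehicle animal 1, WSB/EiJ treated animal 1 or WSB/EiJ treated animal 2, with adjusted p up to 0.0929. On average over the strains Sult1e1 rose by 1.09 ± 0.36 (adjusted p 0.0307), and by 1.52 ± 0.22 in the 30-array fit (adjusted p 1.04e-05). The average call of the 31-array fit ended without MA/MyJ treated animal 2, MA/MyJ vehicle animal 1, SM/J vehicle animal 2, or WSB/EiJ treated animal 1 or 2, with adjusted p up to 0.0796.

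**Figure D2:**
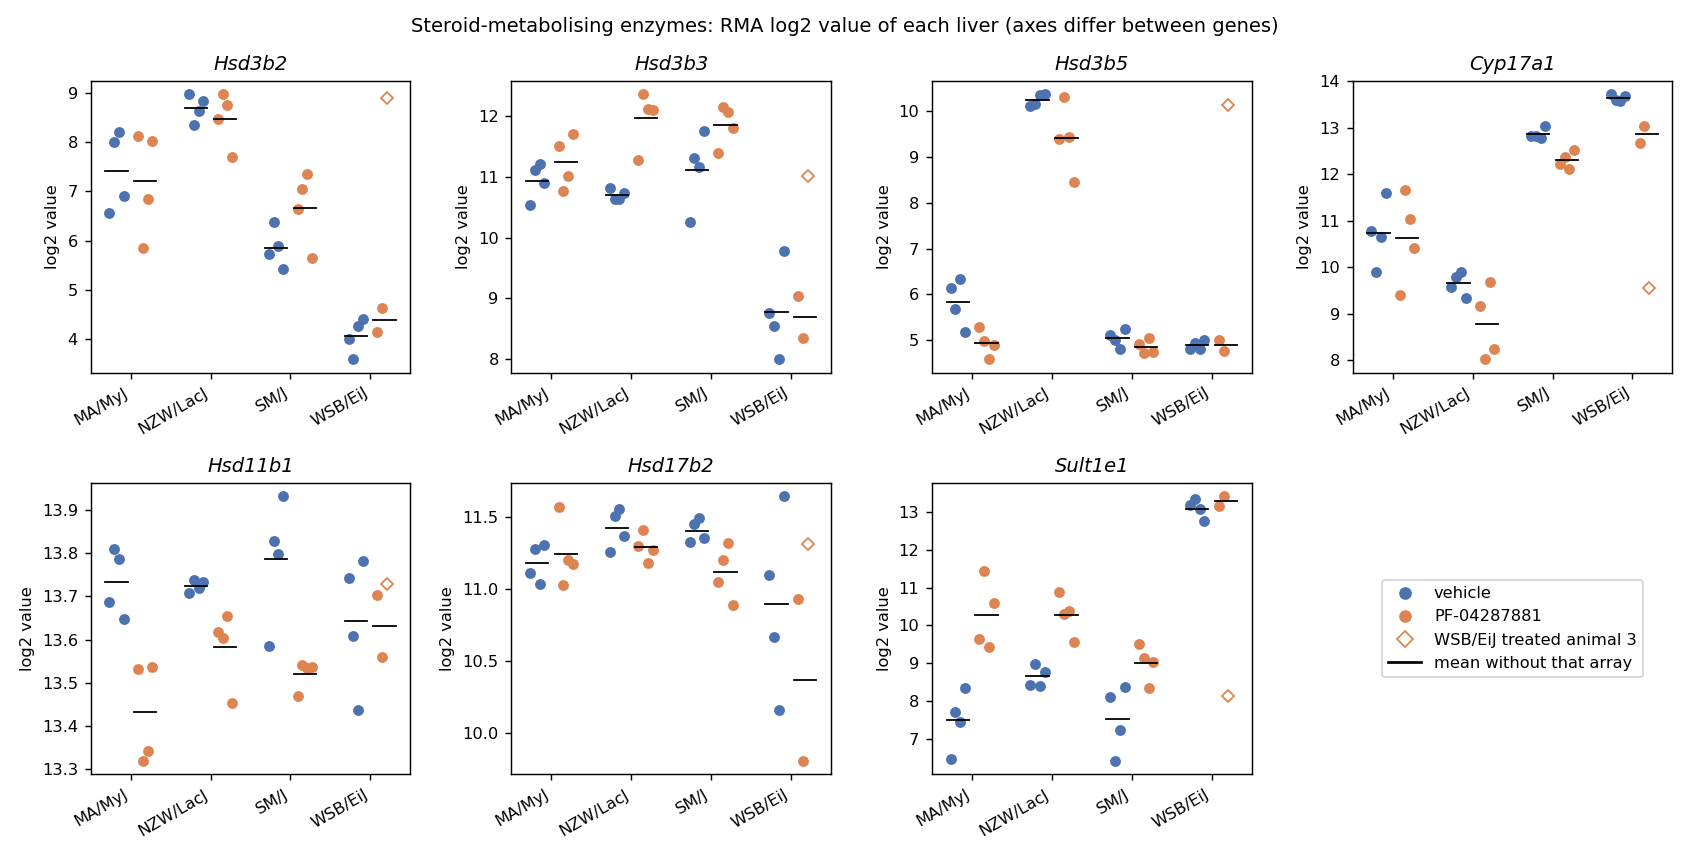
The y axes give log2 values of the 7 enzymes and the x axes the strains, with 1 point per liver, vehicle in blue and PF-04287881 in orange. The open diamond is the array labelled WSB/EiJ treated animal 3 and bars are means without it. Hsd3b5 stands at 10.24 in vehicle NZW/LacJ and at most 5.83 in the other strains, and Sult1e1 at 13.08 in vehicle WSB/EiJ and at most 8.66 in the others.

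Kupffer cell and macrophage markers rose with the drug in the same livers, though not alike in every strain. Of 12 Kupffer cell markers 8 rose in WSB/EiJ, 0 in SM/J, 2 in NZW/LacJ and 7 in MA/MyJ, and none fell. Of all genes tested 6.91%, 1.6%, 15.1% and 3.17% rose in that order, so the 2 in NZW/LacJ lay near that share. In the 30-array fit 9, 0, 5 and 8 rose, beside 13.8%, 2.66%, 18.3% and 5.21% of all genes. Of 9 markers of monocytes and lipid-laden macrophages, 6 rose in each of NZW/LacJ and MA/MyJ, 2 in WSB/EiJ and 1 in SM/J. These counts are of the 31-array fit and stand beside its shares of all genes. Of 10 markers of sinusoidal endothelial cells, 7 fell on average over the strains in both fits, beside 8.92% and 14.2% of all genes tested. Their median difference was -0.39 in the 31-array fit and -0.38 in the 30-array fit. The mean over that list lay between 8.74 and 9.04 in vehicle SM/J livers and between 8.06 and 8.63 in treated ones, and overlapped between vehicle and treated livers in the other strains. The mean over the Kupffer cell list lay between 8.53 and 8.82 in vehicle MA/MyJ livers and between 9.13 and 10.11 in treated ones. In SM/J it lay between 9.13 and 9.57 in vehicle and between 9.11 and 10.01 in treated livers, and in NZW/LacJ between 9.02 and 9.55 and between 8.94 and 10.72. In WSB/EiJ it lay between 7.62 and 8.29 in vehicle livers and between 8.96 and 9.13 in treated ones without the array in doubt. The median change of the 12 hepatocyte markers was between -0.02 and 0.02 in each strain. The part of these markers in the enzyme results was not tested.

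Across the 7 enzymes the 31-array fit called 2 in MA/MyJ, where 4.14% of all genes tested were called, 1 in NZW/LacJ (background 21.5%), none in SM/J (2.59%) and 1 in WSB/EiJ (19.3%). In the 30-array fit it was 3 in NZW/LacJ (26.7%), 3 in MA/MyJ (7.3%), none in WSB/EiJ (32.4%) and 2 in SM/J (4.65%). Where no member was called, an unadjusted limma p under 0.05 was also read. At that threshold 2 members, Hsd11b1 and Sult1e1, passed in SM/J in the 31-array fit and 0 in WSB/EiJ in the 30-array fit. The share of all genes at that threshold is not given here, so nothing is read from these counts. The average over strains called 4, against 22.2% of all genes, and 5 in the 30-array fit, against 32.7%. Among the averages, Sult1e1 and Hsd3b3 rose and Cyp17a1 and Hsd11b1 fell in both fits. Hsd3b5 is counted once each in MA/MyJ and in the average of the 30-array fit, where its values were dim in all strains but NZW/LacJ, and those calls are not read. The average rise of Hsd3b3 was 0.75 ± 0.21 (adjusted p 0.0100), 0.56 ± 0.17 in the 30-array fit (adjusted p 0.0116), and 0.19 by its dimmer probe set, where it did not pass (adjusted p 0.468). In the 30-array fit that call also ended without WSB/EiJ treated animal 1, at 0.47 (adjusted p 0.0595). The F test of strain by treatment called Sult1e1 alone among the 7 in both fits, against 19.4% and 32.4% of all genes. It also called Hsd3b3 in the 30-array fit without WSB/EiJ vehicle animal 3 (adjusted p 0.0454). The effects within a strain share their vehicle animals with the levels by which these genes were chosen.

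**Figure D3:**
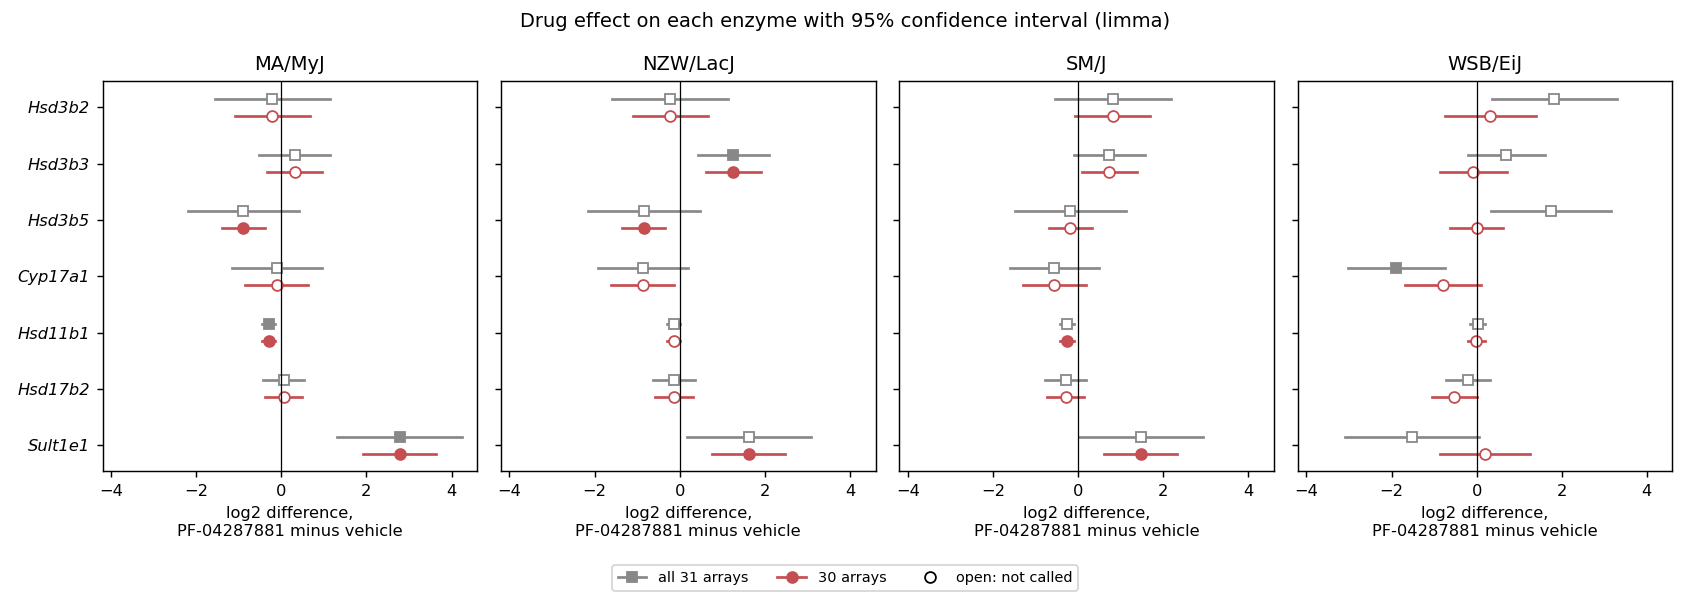
The x axes give the log2 difference of treated minus vehicle livers with its 95% confidence interval, 1 panel per strain and 1 row per enzyme. Grey squares are the 31-array fit, red circles the 30-array fit, and filled marks passed at an adjusted p under 0.05. The Hsd3b5 values outside NZW/LacJ were dim and their marks are not read. Sult1e1 in MA/MyJ lies at 2.78 in both fits, while Cyp17a1 in WSB/EiJ lies at -1.89 in the 31-array fit and at -0.79 in the 30-array fit.

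Among treated animals much of the strain order was as in vehicle animals. In the 30 arrays, NZW/LacJ was again highest and WSB/EiJ lowest for Hsd3b2 (8.47 and 4.40), and WSB/EiJ highest and NZW/LacJ lowest for Cyp17a1 (12.86 and 8.78). NZW/LacJ was again highest for Hsd3b5, at 9.40, and WSB/EiJ for Sult1e1, at 13.28. The gap of Sult1e1 between WSB/EiJ and NZW/LacJ went from 4.43 in vehicle to 3.00 in treated livers, 8.02-fold. Treated NZW/LacJ and MA/MyJ livers had nearly the same mean Sult1e1 level, 10.28 and 10.27, where their vehicle means had been 8.66 and 7.50.

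The neighbours of these enzymes in the pathway were read from lists. Of the 7 tested reductases and glucocorticoid partners, 4 were highest in vehicle NZW/LacJ and 5 lowest in WSB/EiJ, against 25.1% and 29.5% of all genes tested. Akr1c18, which inactivates progesterone, was at 11.14 in NZW/LacJ and at 7.77 to 8.20 in the others. Akr1c6, a keto steroid reductase, was at 11.40 in WSB/EiJ and at 13.90 to 13.95 in the others. Akr1d1, the reductase that saturates the A ring of steroids and bile acid precursors, was highest in NZW/LacJ at 12.01 and lowest in WSB/EiJ at 10.18.

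Of the 8 conjugation genes tested, 6 were highest in NZW/LacJ and 6 lowest in WSB/EiJ, against 25.1% and 29.5% of all genes tested. Ugt2b1, a glucuronosyltransferase, read 12.03 in WSB/EiJ and 13.14 to 13.36 elsewhere, and Sult2a8, a sulfotransferase, 11.64 in WSB/EiJ and 12.98 to 13.43 elsewhere. Sult1e1, with WSB/EiJ 21.5-fold above the next strain, therefore stood against the order of most of the conjugation list. Not all of that list was low in WSB/EiJ. The sulfotransferase Sult1a1 was highest there, at 13.76 against 13.16 to 13.52, and Sult2a2 read 13.68 there and was lowest in MA/MyJ, at 11.98. Serpina6, the plasma carrier of glucocorticoids, was lowest in WSB/EiJ, at 10.32 against 11.65 to 12.25. Of the 5 receptors and carriers tested, 3 were lowest in WSB/EiJ and 2 highest there, against 29.5% and 30.3% of all genes tested. The 2 were the receptor genes Esr1, at 10.89 and at most 10.52 elsewhere, and Nr3c2, at 7.86 and at most 7.84 elsewhere. These lists were chosen with results of the data known, and their shares are descriptions.

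Genes known to be higher in male than female mouse liver were, as a list but not each gene, also shifted towards NZW/LacJ. All animals here were female. Of 15 tested, 8 were highest in vehicle NZW/LacJ and 9 lowest in WSB/EiJ, against 25.1% and 29.5% of all genes tested. Of the others, 3 were highest in WSB/EiJ, 2 in MA/MyJ and 2 in SM/J. The list median lay 0.52 above the mean of the strains in NZW/LacJ and 0.39 below it in WSB/EiJ. The medians over all genes tested lay between -0.01 and 0.01. Susd4 was at 10.83 in NZW/LacJ and at 7.41 to 8.09 in the other strains. Slco1a1, an organic anion transporter, was at 8.86 in WSB/EiJ and at 11.83 to 12.44 in the others. The 14 female-biased genes had medians of 0.22 above the mean in WSB/EiJ, 0.11 above it in NZW/LacJ, 0.06 above it in SM/J and 0.45 below it in MA/MyJ. In NZW/LacJ, Slc22a26, Cyp2b13 and Cyp3a44 of that list lay 1.24, 1.00 and 0.91 above the mean, chosen after their values were seen. Cyp2b10, a drug-metabolising enzyme of that list, read 13.32 in WSB/EiJ, 11.86 in MA/MyJ, 9.50 in SM/J and 9.10 in NZW/LacJ.

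**Figure D4:**
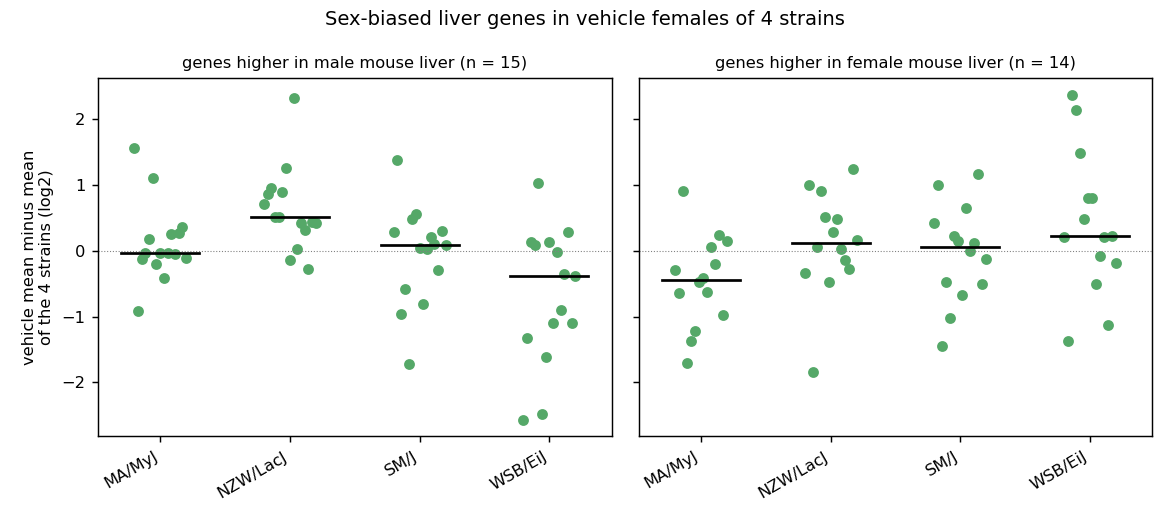
The y axis gives each gene's vehicle mean in a strain minus its mean over the 4 strains (log2), with 1 point per gene and a bar for the median. The x axes are the strains, with 15 male-biased genes at left and 14 female-biased genes at right. The male-biased median is highest in NZW/LacJ, at 0.52, and lowest in WSB/EiJ, at -0.39.

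Regulators of that bias did not follow 1 pattern. Ghr, the growth hormone receptor, was lowest in WSB/EiJ, at 11.45 against 12.76 to 13.02. Bcl6, a repressor linked to the male pattern, was highest in MA/MyJ, at 9.31 against 7.68 to 8.10. Of 13 such regulators tested, 2 were highest in NZW/LacJ and 5 lowest in WSB/EiJ.

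The counts of drug calls in the other steroid lists are given beside the share of all genes called, 21.5% in NZW/LacJ, 19.3% in WSB/EiJ, 4.14% in MA/MyJ and 2.59% in SM/J, and with so few genes a list nothing is read from them. Of 2 other 3beta-hydroxysteroid dehydrogenases tested, Hsd3b1 rose in WSB/EiJ by 1.19 (adjusted p 0.0201), and by 1.79 in the 30-array fit (adjusted p 0.000121). Hsd3b7, an enzyme of bile acid synthesis, fell there by 0.56 (adjusted p 0.00677), and by 0.79 in the 30-array fit. Of 9 other 17beta-hydroxysteroid dehydrogenases, 1 rose and none fell in NZW/LacJ and 1 rose and 1 fell in WSB/EiJ. The riser in WSB/EiJ was Hsd17b7, which also serves cholesterol synthesis, at 0.94 (adjusted p 0.00143). Of the 7 reductases 1 rose in NZW/LacJ, Srd5a3 at 1.02 (adjusted p 0.00149). In WSB/EiJ 1 rose, Akr1c18 at 1.43 (adjusted p 0.0116), and it was not called there in the 30-array fit. Of 6 P450 enzymes and electron donors, Cyp7b1, an oxysterol hydroxylase, fell in NZW/LacJ by 0.75 (adjusted p 0.0338). Esr1, the estrogen receptor, rose in NZW/LacJ by 1.20 (adjusted p 0.000163), and Nr3c2, the mineralocorticoid receptor, by 0.73 (adjusted p 0.00147), 2 of the 5 receptors and carriers tested. Nr3c2 fell in WSB/EiJ by 0.58 (adjusted p 0.0172). Of the 8 conjugation genes, 2 passed in MA/MyJ, 1 in each direction, and the riser was Sult1a1, a phenol sulfotransferase, at 0.40 (adjusted p 0.000966), a small change beside the 2.78 of Sult1e1. In NZW/LacJ 1 conjugation gene rose and none fell, and in WSB/EiJ 1 rose and 1 fell. In SM/J no gene of these 6 lists was called in the 31-array fit, and 1 of the 9 17beta-hydroxysteroid dehydrogenases, Hsd17b4, fell in the 30-array fit, by 0.30 (adjusted p 0.0345).

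The genes most like each enzyme over the 31 arrays were named by their Pearson correlation, 2 for each. The arrays share strain and treatment, so the values describe the pattern over strains. Hsd3b5 had Susd4 (0.975) and Mgst2 (0.972), both bright in NZW/LacJ, where Mgst2 was at 11.01 against 6.10 to 6.25 elsewhere. Hsd3b3 had Abhd14b (0.953) and Lrrc3 (0.950), both lowest in WSB/EiJ. Sult1e1 had Lrba (0.904) and Ppif (0.903), both highest in WSB/EiJ, with Ppif at 11.92 against 10.82 to 10.96. Hsd3b2 had Nln (0.910) and Mn1 (0.905), and Cyp17a1 had Lims1 (0.872) and Pomgnt1 (0.858). Without the array in doubt Fars2 took the second place for Hsd3b3 and Klhl28 for Cyp17a1. Hsd11b1 was nearest to Hao2 (0.842) and Ces1e (0.801). Hsd17b2 was nearest to Otc (0.879), a urea cycle enzyme, and Nit2 (0.863).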

How the data were processed

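Liver RNA of 31 mice was measured on 1-colour Affymetrix arrays. The deposited values are log2 per probe set, made by the authors with Affymetrix Power Tools and RMA per the submitters' processing notes; versions and genome build are not given in the sources used here. Of 44721 probe sets, 34728 had 1 gene symbol, 872 several and 9121 none listed, and 34525 were matched to RefSeq by Entrez number. Each gene was read from its brightest 1-symbol probe set, and genes above 6.49, the median of all values, in at least 3 arrays were tested. Array medians ran from 6.43 to 6.54, and the number of arrays limits the precision. limma 3.58.1 in R 4.3.3 was fitted with 1 mean per group over all arrays and with p-values adjusted (Benjamini-Hochberg) over 12890 genes, and was tested on simulated data. The alternatives were no filter, median centring, averaged probe sets, a replicate block, single-strain fits and leaving out animals. Hsd3b3 by its other probe set, and a further animal left out beside the array in doubt, were chosen after seeing the data. All 8 members are named, and for each measured one the 2 most correlated genes. Genes of the lists were drawn from the 3 with the widest vehicle range and the 2 with the largest change among those called in a strain. Not all of these are named in the text, and no rule set which were. Slc22a26 and Cyp2b13 lay outside this choice. The members and lists were chosen with earlier results of these data known.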

Additional observations from a re-analysis of the deposited data

Results flagged for a closer look

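Hsd11b1 in SM/J treated animal 1 read 13.47, apart from the other 3 treated SM/J livers, which lay within 0.01 of each other. It was the only gap past Dixon's critical value among 49 groups of the enzymes, where chance gives about 1 in 20.

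The drug effect on Sult1e1 differed between strains by the F test of strain by treatment, with an adjusted p (limma) of 0.0222 in the 31-array fit and 0.0237 in the 30-array fit. All 4 treated livers of MA/MyJ and of NZW/LacJ, and 3 of 4 of SM/J, lay above every vehicle one, at 2.78, 1.62 and 1.47, while the WSB/EiJ difference was 0.20 without the array in doubt. The vehicle WSB/EiJ mean was already 13.08, and whether a rise from there would be read in full was not tested.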

How the results depend on the processing

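No filter, arrays centred on their medians and the replicate block left all 42 enzyme results (limma) on the same side of the threshold. With the replicate block the Sult1e1 difference in MA/MyJ was 2.78 (adjusted p 0.0212). Animal numbers did not pair the samples: 4 of 15 pairs of groups had a correlation of deviations over 0.1, from -0.52 to 0.41. By its other probe set Hsd3b3 in NZW/LacJ was -0.00609, which left 0 of 7 calls in NZW/LacJ, as did the mean over probe sets; the cause was not tested. Fitted on their own arrays, which changes the spread used, NZW/LacJ had 2 calls, SM/J 1 and WSB/EiJ 0. Leaving out animals, 1 alone or 1 beside the array in doubt, gave from 0 to 3 of 7 calls in MA/MyJ, 0 to 4 in NZW/LacJ, 0 to 2 in SM/J, 0 to 4 in WSB/EiJ, 3 to 6 on average and 0 to 2 by the F test. The shares of all genes called in the single-strain fits and in those with animals left out are not given here, so nothing is read from these counts. Without the array in doubt, calls over all genes rose from 534 to 941 in MA/MyJ, from 334 to 600 in SM/J, from 2488 to 4180 in WSB/EiJ and from 2498 to 4180 by the F test. Low signal limits Hsd3b5 outside NZW/LacJ and Hsd3b2 in WSB/EiJ, and 2 treated WSB/EiJ arrays without the array in doubt leave wide intervals.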

Other observations

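Some sex-biased genes changed with the drug in NZW/LacJ. Of the 15 male-biased genes tested, 2 rose and 4 fell there, and of the 14 female-biased genes 2 rose and 4 fell. Of all genes tested 15.1% rose and 6.40% fell, so the numbers that rose lay near that share. The genes named next all fell, and those that rose are not named. Elovl3, a fatty acid elongase higher in males, fell by 2.79 (limma, adjusted p 0.000160). Cyp3a44 and Cyp3a16, P450 enzymes higher in females, fell by 1.68 (adjusted p 0.000478) and fell by 1.87 (adjusted p 0.00765) in that order, and Cyp2b10 fell by 2.10 (adjusted p 0.0139).

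In WSB/EiJ without the array in doubt, Akr1c14, a keto steroid reductase, fell by 2.27 (adjusted p 1.05e-06), and Socs3, an inhibitor of cytokine signalling, rose by 2.67 (adjusted p 2.89e-06). With all arrays Socs3 rose by 1.77 (adjusted p 0.00666).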
